A study of Drosophila melanogaster with 2 samples.

Results

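The genes described here are 37 genes of the cell division cycle and of DNA replication in Drosophila melanogaster, out of 13968 protein-coding genes annotated on the chromosomes used. They were taken by name from a fixed list and not by a cutoff on signal, but the list was chosen with earlier results of these data known. Their occupancy by the protein encoded by bbx (bobby sox), which carries an HMG box, was read from ChIP-seq peak lists. The material was whole embryos aged 0 to 24 h of a strain that expresses a bbx-eGFP fusion protein, precipitated with an anti-GFP antibody. There were 2 biological replicates of this 1 group and no second group. The promoter that drives the fusion protein was not given in the labels, and no embryos without the tag were used here. All stages and tissues of the embryo were mixed in each sample, so a site occupied weakly in many cells and one occupied strongly in few cells cannot be told apart.

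A cell copies its DNA once per division. The origin recognition complex marks the origins, Cdc6 and the Cdt1 protein (dup in the fly) load the Mcm helicase there, and Cdc45 joins the helicase when an origin fires. Cyclin-dependent kinases with their cyclins drive entry into S phase and into mitosis, and E2F factors with Dp, held in check by the retinoblastoma protein Rbf, regulate many replication genes. Early fly embryos divide rapidly on maternal products, and later embryonic cells lengthen the cycle, leave it, or replicate DNA without division.

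Of the 37 genes, 25 (67.6%, 95% Wilson interval 51.5 to 80.4%) were occupied, meaning that the summit of a peak of the conservative set lay within 500 bp of an annotated transcription start site. The conservative set held 4753 peaks, all with an irreproducible discovery rate (IDR) of at most 0.01 in the authors' comparison of the replicates. By the same rule 30.8% of all protein-coding genes were occupied. By group, the count was 4 of 4 genes for the E2F group and 9 of 11 (81.8%) for cyclins, their kinases and regulators. It was 2 of 3 (66.7%) for the fork and nucleotide genes, 8 of 15 (53.3%) for the origin and helicase genes and 2 of 4 for the mitotic genes. The order of the groups changed with the setting. The cyclin and kinase count was 5 of 11 (45.5%) at an IDR of at most 0.001, against 21.9% of protein-coding genes. The E2F count was 2 of 4 where the peak had to cover the start site, against 24.7%. The intervals of these small groups overlapped, and no difference between the groups was tested. With a single group of embryos and genes chosen with earlier results of these data known, the counts are given as a description.

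**Figure D1:**
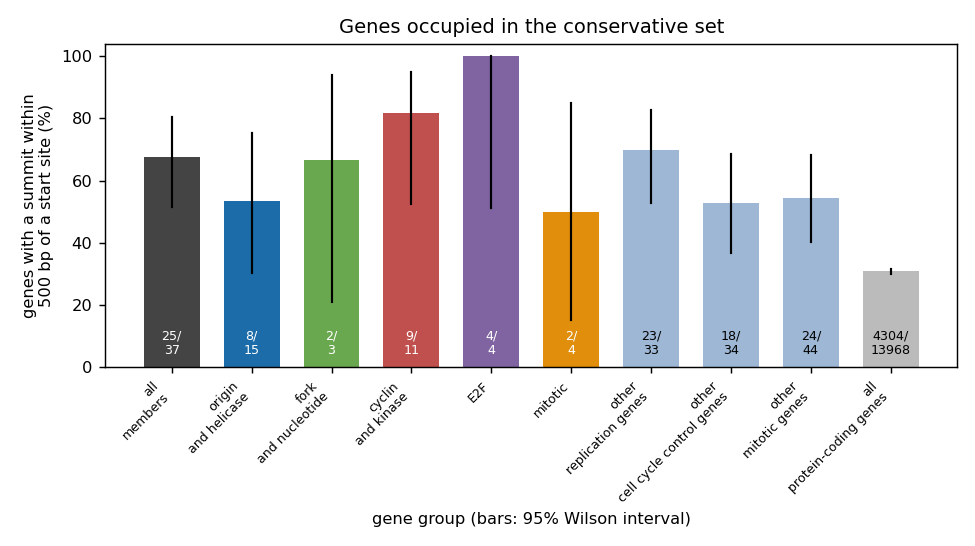
Share of genes (y axis, percent) with a conservative bbx summit within 500 bp of a start site, for the 37 genes, their 5 groups, 3 lists of other genes of the pathway and all protein-coding genes. Bars give the share with the 95% Wilson interval as a line, and the counts stand in the bars. The 37 genes reach 67.6% and all protein-coding genes 30.8%.

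Signal is the authors' value of enrichment at a peak, in pooled reads or in each replicate, on a scale that the labels do not state. At the occupied genes the pooled signal was close to the sum of the replicate columns, with ratios from 0.864 to 1.11. The pooled signal of the strongest summit of each occupied gene ranged from 59.6 to 483, with a median of 171, and the median over all occupied protein-coding genes was 133. This order did not hold at every setting: the medians were 113.5 and 113.9 at an IDR of at most 0.05, 125.5 and 127.9 where the peak had to cover the start site, and 125.5 and 126.3 where a summit went to the nearest gene only. Of the 25 genes, 13 lay above that median. Only CycB, geminin, E2f2 and Cdk2 (16% of the 25) were among the 475 strongest peaks of the set, and of all occupied protein-coding genes 14% were. The signals of the 25 genes were spread from weak to strong peaks of the set.

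Among the origin genes, Orc5 and Orc6, which encode subunits of the origin recognition complex, were occupied. Orc5 had a pooled signal of 301, with 188 and 107 in the first and second replicate columns. Orc6 had 238, with 138 and 105 in the replicate columns. Orc1 and Orc2 had no conservative summit. Licensing genes held both the strongest and some of the weakest sites of the group. The summit of geminin, the inhibitor of Cdt1, had a signal of 406 (210.1 ± 26.2 over the replicate columns, SD, n = 2) and was the second strongest of all 37 genes. Cdt1 itself, encoded by dup, had 82.4 (42.6 ± 19.5, SD, n = 2), and the loader gene Cdc6 had 95.4 (48.5 ± 21.4, SD, n = 2). Of the helicase genes, Mcm5 had 191, with 92.7 and 102 in the replicate columns, and Mcm6 had 109, with 82.2 and 41.3. Mcm2 had 76.9, with 35.5 and 42.0. Mcm3, dpa (the fly Mcm4 gene) and Mcm7 had no conservative summit, nor did Mcm10, which acts in origin firing, or Cdc45. Of the 6 genes of the helicase ring (Mcm2, Mcm3, dpa, Mcm5, Mcm6 and Mcm7) 3 were occupied, against 30.8% of protein-coding genes. This split moved with the threshold: Mcm2 was not occupied at an IDR of at most 0.001, and dpa was at 0.05. The strongest summits at Mcm5 and Mcm6 lay nearer to the start site of another gene.

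Of the genes for fork progression and nucleotide supply, PCNA, the sliding clamp of the DNA polymerases, had a pooled signal of 229.9 (139.5 and 94.0 in the replicate columns). The ribonucleotide reductase subunit genes differed: RnrS had 84.5 (42.9 ± 1.13, SD, n = 2) and RnrL had no conservative summit.

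The 5 cyclin genes of the list were all occupied, against 30.8% of protein-coding genes, with signals far apart. At an IDR of at most 0.001 only CycA and CycB of them stayed occupied, against 21.9% of protein-coding genes. Of the cyclin genes in the further lists, CycC, CycT and CycY were occupied, and CycG, CycH, CycJ and CycK were not. CycB, a mitotic cyclin, had the highest signal of the 37 genes, 483, and the least even replicates, with 341 and 147 in the first and second columns. CycA, which acts from S phase into mitosis, had 278, with 146 and 134. CycB3, another mitotic cyclin, had 91.1 (43.7 ± 10.4, SD, n = 2). The cyclins of entry into S phase had the lowest signals of the occupied genes: CycE, the partner of Cdk2, had 67.4 (35.2 ± 2.86, SD, n = 2), and CycD, the partner of Cdk4, had 59.6 (34.5 ± 8.25, SD, n = 2). Their kinases were stronger than the cyclins they bind, with 329 (165 ± 13.8, SD, n = 2) at Cdk2 and 171 (88.1 ± 29.2, SD, n = 2) at Cdk4. The low place of CycE holds for summits within 500 bp only. A peak of 115.1 within CycE, 700 bp from its nearest start site, was not counted. Cdk1, the mitotic kinase, had no conservative summit although CycA, CycB and CycB3 did. The Cdc25 phosphatase gene stg (string), which times mitosis in the embryo, had 77.6, with 31.0 and 42.5. Its relative twe (twine), which acts in the germ line, had none. The gene of the Cdk2 inhibitor dap (dacapo) had 125, with 49.2 and 67.8.

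The E2F group was occupied in full. E2f2, which encodes the repressive E2F of the fly, had 339 (155 and 189 in the replicate columns), and the activator gene E2f1 had 263 (155 and 106). Dp, the partner of both, carried a summit at each of 2 promoters, with 118 (52.9 ± 10.3, SD, n = 2) and 109.5 (52.3 ± 1.98, SD, n = 2). The retinoblastoma gene Rbf had 94.5 (47.7 ± 0.329, SD, n = 2). Of the mitotic genes, aurA, the kinase of centrosomes and spindle, had 317, with 122 and 171, and polo, a mitotic kinase, had 277, with 156 and 128. The gene of the chromosomal passenger kinase aurB and fzy (fizzy), which encodes the Cdc20 activator of the anaphase-promoting complex, had no conservative summit.

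Among the 8 strongest genes, each gene and the next one in the order of pooled signal lay within 1 SD ranges that overlapped. Over the replicate columns these were CycB (244 ± 137, SD, n = 2), geminin (210.1 ± 26.2), E2f2 (172 ± 24.2), Cdk2 (165 ± 13.8), aurA (146 ± 34.5), Orc5 (147.6 ± 57.1), CycA (139.8 ± 8.45) and polo (142 ± 20.2). For some genes farther apart in that order the ranges did not overlap, as for Cdk2 (175 and 156) and CycA (146 and 134), picked after the values were seen. With n = 2, neither overlap nor its absence shows whether genes differ, and no difference was tested. The replicate columns differed by less than 2-fold at 24 of the 25 genes, CycB being the exception, and at 91.6% of all conservative peaks. The first column was the higher at 15 of the 25 genes and at 74.6% of all conservative peaks.

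**Figure D2:**
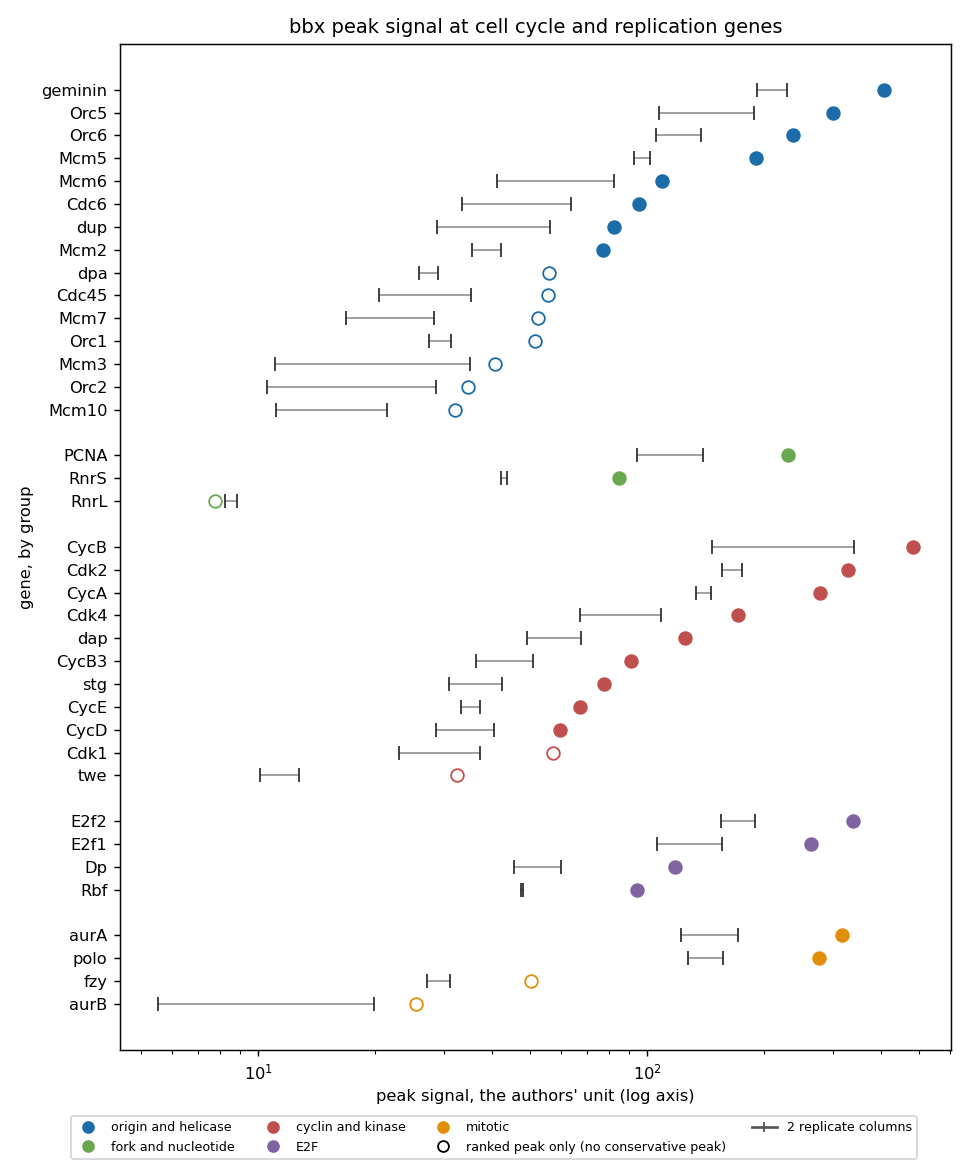
Peak signal (x axis, the authors' unit, log axis) at each of the 37 genes (y axis, by group and from strong to weak). Filled circles are pooled signals of the strongest conservative summit within 500 bp, open circles those of the strongest ranked summit at the 12 genes without a conservative one, and bars join the 2 replicate columns. Filled circles run from 59.6 at CycD to 483 at CycB and open ones from 7.76 at RnrL to 57.4 at Cdk1.

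By the rule every summit counted lay within 500 bp of a start site, so only its place within that range is described. At 17 of the 25 genes (68%) the strongest summit was within 100 bp of the gene's own start site, and of all occupied protein-coding genes 69.8% had it so close. It lay upstream at 22 of 25 genes (88%), against 75.7% of all occupied protein-coding genes, with a median offset of -56 bp against -39 bp. Mcm2 (48 bp), CycD (24 bp) and dap (79 bp) had it downstream. The farthest were those of Mcm6 (-417 bp), Rbf (-299 bp), Dp (-291 bp), Mcm5 (-193 bp), E2f1 (-182 bp) and CycE (-176 bp). With 500 bp as the limit, Mcm6 had the farthest of the summits counted, and its second, weaker summit (51.6) lay at 70 bp. The nearest conservative summit to a gene not counted was 1114 bp from the start site of Mcm3.

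**Figure D3:**
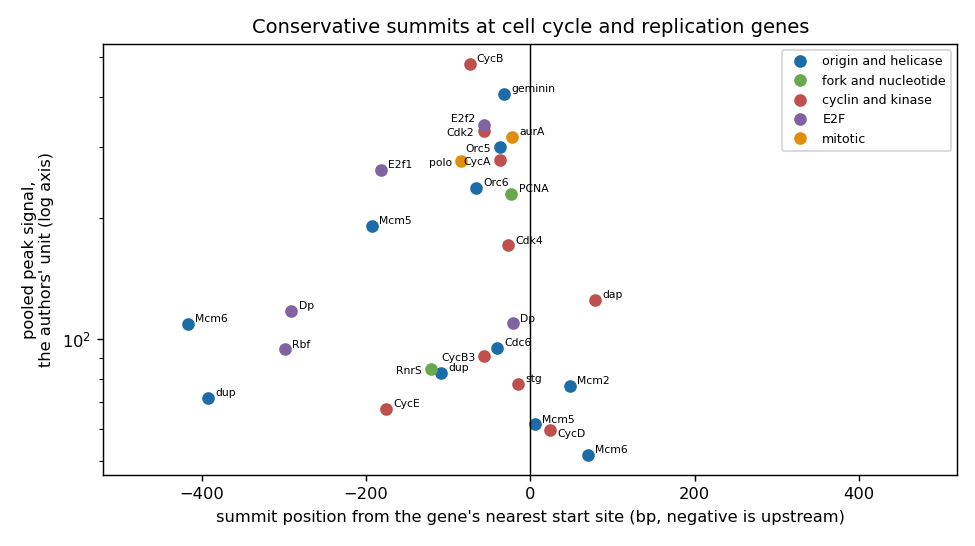
Position of each of the 29 conservative summits within 500 bp of a start site of the 37 genes (x axis, bp from the nearest start site of that gene, negative is upstream) against its pooled signal (y axis, the authors' unit, log axis), coloured by group. The signals above 200 lie between -182 and -22 bp.

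Several summits lay between 2 genes, so that the peak cannot be given to the listed gene alone. A start site of another gene was within 500 bp of the strongest summit at 8 of the 25 genes. The other gene was the nearer one in 4 cases. The summit counted for E2f2 lay 0 bp from the start site of Mpp6, an exosome cofactor gene, and 56 bp from that of E2f2. The strongest summit at dup lay 1 bp from the start of SRPK, a kinase of splicing factors, and 109 bp from the nearest start site of dup. The strongest summit at Mcm6 lay 3 bp from CG3198, and that at Mcm5 lay nearer to Art1, an arginine methyltransferase gene, than to Mcm5, from which it was 193 bp away. Mcm5 and Mcm6 each had a second summit nearer to themselves, of 61.6 at 6 bp and 51.6 at 70 bp. The second summit at Mcm5 shared its value in the first replicate column (92.7) with the stronger one. The other shared summits were nearer to the listed gene, namely those of Orc5 (Arpc1, an actin nucleation gene, at 59 bp), RnrS (CG34231 at 494 bp), Cdk2 (mir-995 at 357 bp) and aurA (CG3281 at 297 bp). With each summit given to the nearest gene alone, 23 of the 37 genes (62.2%) stayed occupied, against 24.1% of protein-coding genes. The 2 lost were dup and E2f2.

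The counts were also taken with and without a close gene on the other strand. Of the 23 listed genes without a protein-coding start site on the opposite strand within 500 bp, 18 (78.3%) were occupied, against 21.5% of the protein-coding genes of that kind. Of the 14 with such a neighbour 7 were occupied, and 55% of the protein-coding genes of that kind were. They were taken by the number of start sites as well: 14 of 24 genes with 1 start site were occupied (58.3%) against 25.6% of protein-coding genes with 1, and 11 of 13 with several (84.6%) against 45.3%. Both divisions of the genes were chosen after their values had been seen.

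Some genes with several start sites carried the peak at only one of them. The summit of CycE lay 176 bp upstream of an internal start site, at position 15746786 on 2L, and a second peak within the gene, with a summit at 15747450 and a signal of 115.1, lay 700 bp from the nearest CycE start site and 551 bp from that of asRNA:CR44866. The summit of Cdk4 was also at an internal start site, and 2 further peaks of 128 and 127 lay more than 500 bp from any start site of the gene. The peak of 127 was 106 bp from the start site of an antisense RNA gene, asRNA:CR44375, and the peak of 128 was 658 bp from it. Counted by the 5'-most start site alone, CycE and Cdk4 were not occupied. E2f1 carried its peak at its 5'-most start site (summit at 21661053 on 3R) and had 2 more in the gene, of 117 and 75.1. Within dup a peak of 168 lay 1777 bp from the nearest of its 2 start sites. This was stronger than the 2 summits counted for dup, of 82.4 at -109 bp and 71.5 at -392 bp.

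The 12 genes without a conservative summit all had a summit of the authors' full ranked list within 500 bp. That list holds 103156 peaks on the chromosomes used, with a median signal of 18.7, and it reached 65.4% of the protein-coding genes without a conservative summit. At an IDR of at most 0.05, 5 of the 12 genes had a summit, against 9.41% of those protein-coding genes. Orc1 (IDR 0.0103, signal 51.6, 27.6 and 31.4 in the replicate columns) and fzy (IDR 0.0111, signal 50.3, 27.1 and 31.2) lay just outside the threshold of 0.01. The next were dpa (IDR 0.0149, signal 56.1), Cdk1 (IDR 0.0161, signal 57.4) and Cdc45 (IDR 0.0412, signal 55.7). Just inside the threshold lay CycD, with an IDR of 0.0071 and a signal of 59.6. The signals of the 5 genes, 50.3 to 57.4, were all below that of CycD. Signal alone did not set the calls apart, since the second conservative summit at Mcm6 (51.6) was below those of dpa, Cdk1 and Cdc45.

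The remaining 7 genes had IDR values of 0.165 or more. Mcm7 had a ranked summit of 52.5 at -288 bp, with 28.4 and 16.8 in the replicate columns. Mcm3 (40.6), Orc2 (34.7) and Mcm10 (32.1) each had a higher value in the first column, 35.1 against 11.1 at Mcm3, 28.7 against 10.5 at Orc2 and 21.4 against 11.1 at Mcm10. The germ-line gene twe had 32.5 at 287 bp, with 12.7 and 10.1. At aurB (25.5 at 187 bp) the second column was the higher, with 5.53 and 19.9. RnrL had the lowest value of the 37 genes, 7.76, with 8.25 and 8.81 in the replicate columns, below the median of the ranked list.

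Each replicate's own thresholded list gave a similar picture. The list of replicate 1 had a summit at 22 of the 37 genes, against 30.6% of protein-coding genes, and that of replicate 2 at 21, against 23.7%. Both lists held a summit at 18 of the 25 occupied genes. Cdc6, dup and CycB3 had one in replicate 1 alone, and Mcm2, CycD and Rbf in replicate 2 alone. At stg neither list had a summit, so its call rests on the comparison of the replicates. Orc1 had one in replicate 1 (27.6) without a conservative peak. The series' other thresholded set held 26 of the 37 genes, against 34.6% of protein-coding genes, and the added gene was fzy.

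Sequences around the summits were searched on both strands for short motifs known from fly promoters. The windows reached 100 bp to either side of the strongest summit at occupied genes and of the 5'-most start site at the others. The DNA replication-related element (DRE), TATCGATA, is bound by Dref and takes its name from promoters of replication genes. It lay in the window at 6 of the 37 genes (16.2%), against 9.22% of all protein-coding genes. Of the 25 occupied genes 5 had it (20%), namely Orc5, PCNA, CycA, Cdk2 and Cdk4, while 25.1% of all occupied protein-coding genes did. Its middle lay 0 bp from the summit at PCNA, 1 bp from it at Cdk2, 21 bp at Cdk4 and 30 bp at Orc5 and CycA. Orc2 had a DRE 20 bp downstream of its start site and no conservative summit. The letters CGATA, which BEAF-32 recognises and which are part of the DRE, lay in the window at 18 of the 25 occupied genes (72%) and at 2 of the 12 others (16.7%). In all protein-coding genes the shares were 71.3% with a summit and 28.8% without one. With all windows at the 5'-most start site, 14 of the 25 occupied genes and 2 of the 12 others had CGATA. Together these were 16 of the 37 genes, against 39.3% of protein-coding genes.

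The stretches of 90 bases just upstream of the start sites of Orc5 (chr2L:13829747-13829836, plus strand), CycA (chr3L:11833579-11833668, minus strand) and Cdk2 (chr3R:20735533-20735622, plus strand) are shown since the summits at these genes lay close to a DRE. They were read from the RefSeq genome of release 6 (dm6), 5′ to 3′ in the direction of transcription, with the DRE in capitals.
Orc5: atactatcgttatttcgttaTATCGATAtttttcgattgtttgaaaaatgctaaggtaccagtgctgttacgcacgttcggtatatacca
CycA: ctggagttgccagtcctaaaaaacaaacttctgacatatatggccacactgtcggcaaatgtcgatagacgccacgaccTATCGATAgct
Cdk2: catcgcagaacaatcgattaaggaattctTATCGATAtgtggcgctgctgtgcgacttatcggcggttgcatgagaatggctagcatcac

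E2F sites lay at genes with and without a summit. One of the forms TTTGGCGC, TTTCCCGC, TTTGCCGC and TTTCGCGC lay in the window at 10 genes (27.0%), against 4.36% of protein-coding genes. These were 7 of 15 origin and helicase genes (Orc1, Orc5, Orc6, Mcm2, Mcm3, dup and Cdc45), both reductase genes RnrL and RnrS, and CycE of the cyclin and kinase group. No gene of the E2F or mitotic groups had one. Of the occupied genes 6 of 25 had a form (24%), and of the others 4 of 12 (33.3%). The shares of all protein-coding genes were 5.16% with a summit and 4% without one. At Mcm2 the site lay 9 bp from the summit, while the other sites at occupied genes were 50 to 91 bp away. With all windows at the 5'-most start site, 11 of the 37 genes had a form, against 4.50%.

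The E2F sites are printed with 10 bases to either side, in the direction of transcription and with the site in capitals, for Mcm2 (chr3R:8264996-8265023, plus strand), for the site of CycE nearer to its start site (chr2L:15746684-15746711, minus strand), and for Mcm3 (chrX:5323839-5323866, plus strand) and RnrL (chr2L:10327924-10327951, minus strand), which had no conservative summit.
Mcm2: tagcaaacatTTTCCCGCgcattttcgc
CycE: atccgcctgtTTTGGCGCgttcctcatg
Mcm3: acactacgctTTTCCCGCgaaaaaactt
RnrL: atgactttaaTTTGGCGCctttttgtgc

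The core of motif 1, GGTCACAC, a frequent element of broadly used fly promoters, was counted in the same way. It lay in the window at 3 of the 25 occupied genes (12%: Orc5, CycB and CycB3) and at 5 of the 12 others (41.7%: Mcm3, Mcm10, Cdc45, fzy and aurB). Together these were 8 of 37 genes, against 6.46% of protein-coding genes, whose shares were 9.97% with a summit and 4.89% without one. At the 5 genes without a summit the middle of the motif lay between 17 bp upstream and 3 bp downstream of the start site. The difference rests on few genes and was not tested. With all windows at the 5'-most start site the counts were again 3 and 5 genes, against 6.74% of protein-coding genes. The 3 occupied genes were not the same: CycB, with the core at -164 bp, left the count and Rbf, with one at -49 bp, entered it.

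For comparison with the occupied promoters above, the 60 bases upstream of the start sites of Mcm3 (chrX:5323795-5323854, plus strand), Cdc45 (chrX:1030557-1030616, minus strand) and fzy (chr2L:16310896-16310955, plus strand) are given, with the motif 1 core in capitals.
Mcm3: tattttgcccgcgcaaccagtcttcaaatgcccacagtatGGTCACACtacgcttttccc
Cdc45: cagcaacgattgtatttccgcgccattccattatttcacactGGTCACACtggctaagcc
fzy: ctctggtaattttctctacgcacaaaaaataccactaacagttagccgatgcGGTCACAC

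**Figure D4:**
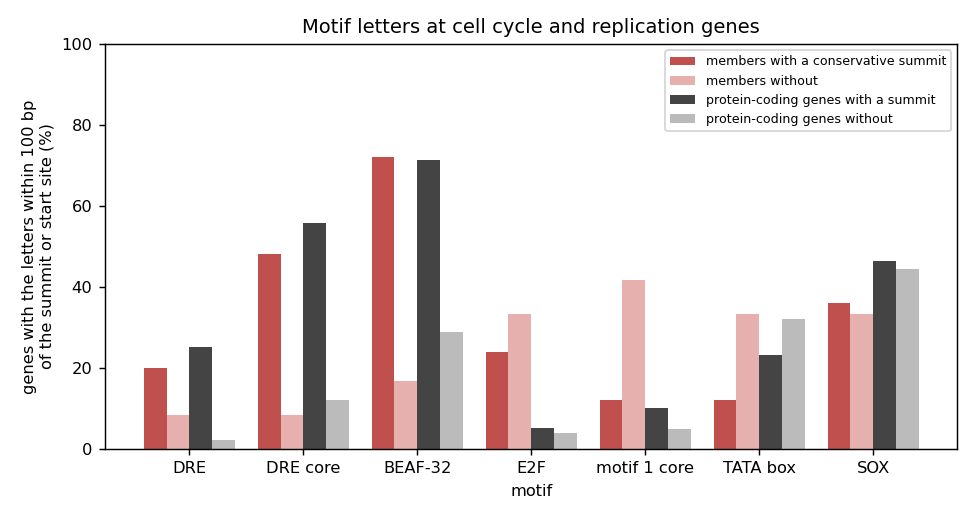
Share of genes (y axis, percent) with the letters of 7 motifs (x axis) within 100 bp of the strongest summit, or of the 5'-most start site where there was no conservative summit. Red bars are the 25 listed genes with a summit, pink bars the 12 without, dark grey bars protein-coding genes with a summit and light grey bars those without. E2F sites stand at 24% and 33.3% in the listed genes and at 5.16% and 4% in the protein-coding genes.

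Other genes of the pathway, from 3 lists of which 111 of 112 names were found in the annotation, were counted by the same rule. Of 33 other replication genes 23 were occupied (69.7%), of 34 other cell cycle control genes 18 (52.9%) and of 44 other mitotic genes 24 (54.5%), 65 of 111 in all (58.6%), against 30.8% of protein-coding genes. With each summit given to the nearest gene only, the count was 49 (44.1%, against 24.1% of protein-coding genes), and at an IDR of at most 0.001 it was 51 (45.9%, against 21.9%). Cdk12 and SAK, named for this reason after their values were seen, were counted on the same summit. The strongest replication genes were Top1, a topoisomerase (535), the clamp loader gene RfC3 (395), the primase-polymerase subunits PolA1 (321) and PolA2 (270.5) and the kinase gene Cdc7 (232). The strongest control genes were grp, the fly Chk1 (462), mip120 of the Myb and Rbf complex (445), trbl, which restrains string (415), the elongation cyclin gene CycT (341) and rux, an inhibitor of CycA (329.8). Of the mitotic genes, the cohesin gene SMC1 had 929 (465 ± 94.2 over the replicate columns, SD, n = 2), above all 37 genes. Sse, the separase (363), Spc25 of the kinetochore (344), shtd, a subunit of the anaphase-promoting complex (337), and the checkpoint gene BubR1 (336) came next.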

How the data were processed

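ChIP-seq with an anti-GFP antibody was done by the authors on chromatin of bbx-GFP embryos (0 to 24 h), sonicated to 200 to 800 bp per the labels. Both replicates came from 1 strain. Peaks on dm6 were compared by IDR, per the deposited text files, which also name tracks of fold over control that were not used. Neither the labels nor the files used here state an aligner, a peak caller or settings. For each peak the authors deposited a signal, on an unstated scale. The deposited −log10 values used are those of the global IDR. The 2 replicate columns of the ranked list carry no replicate number and were called first and second. At Orc5, CycB and Cdk2 the first column held the signals of replicate 1's own list and the second those of replicate 2's. No read totals were used, so the depth is unknown, and Wilson intervals of shares cover counting error only.

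Start sites came from Ensembl release 115, with transposable element genes left out, and peak ends lay within the release 6 chromosomes. Positions are 1-based. A gene's value is its strongest summit within 500 bp. All members are named, with the 5 strongest occupied genes of each further list. The members, groups, lists and motifs were chosen with earlier results of these data known, so no list test was made. One listed name (tipin) was not matched. The assignment of summits was checked on simulated data. Tools were Matplotlib 3.10.9, SciPy 1.17.1, pandas 2.3.3 and NumPy 2.4.6, under Python 3.11.15.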

Additional observations from a re-analysis of the deposited data

How the results depend on the processing

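The count of 25 occupied genes ranged from 17 (IDR of at most 0.001, with 21.9% of protein-coding genes) to 30 (IDR of at most 0.05, with 37.3%). For the other settings the share of protein-coding genes is in brackets. The count was 26 with the other thresholded set (34.6%), and 24 and 25 at 200 and 1000 bp (26.4% and 33.6%). It was 23 each with peaks that cover the start site (24.7%), the nearest gene only (24.1%) and the 5'-most start site only (29%). Merging overlapping peaks left it at 25 (30.8%). Replicate 1 alone gave 22 (30.6%) and replicate 2 alone 21 (23.7%). At an IDR of at most 0.001 (21.9%) the origin and helicase genes gave 5, the fork and nucleotide genes 1 and the cyclins and kinases 5. With peaks that cover the start site (24.7%) the E2F group gave 2. The median signal was 148.2 with the other set, 263 and 114 at an IDR of at most 0.001 and 0.05, 181 at 200 bp, 125 both with covered start sites and with the nearest gene only, and 191 with the 5'-most start site. Leaving out a replicate gave 105.4 to 107.4, on the scale of 1 replicate, where pooled signals are about the sum of both. The letters TATCGATA gave 6 genes, against 9.22% of protein-coding genes. TCGATA in its place gave 13 genes (35.1%, against 25.5%) and CGATA 20 (54.1%, against 41.9%). DRE windows of 50 and 200 bp gave 6 genes each (16.2%, against 7.45% and 10.3%). Windows at the 5'-most start site, added after the data were seen, gave 5 (13.5%, against 7.83%). No paired analysis was possible because there is 1 group of samples. The depth is unknown, and its part in missing summits was not tested.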

Other observations

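The remaining motifs were searched in the same windows. The SOX site ACAAT lay at 9 of the 25 occupied genes (36%) and at 46.3% of all occupied protein-coding genes, and the TCF site CTTTGA at 2 (8%) and 7.88%. Both are sites of other HMG-box factors. The TATA box letters TATAAA lay at 3 of the occupied genes (12%) against 23.1% of occupied protein-coding genes, and GAGAG at 5 (20%) against 20.6%. The E-box CAGCTG lay at 7 (28%) against 18.8%. The letters TTTGAA of the cell cycle homology region, an element of mitotic promoters known from mammals, lay at 9 (36%) against 28.1%. The Zelda site CAGGTAG was found at 0 of the 25 genes and at 0.906% of the occupied protein-coding genes. With all windows at the 5'-most start site the letters TATAAA lay at 6 of the 25 occupied genes, and at 10 of the 37 genes against 29.2% of protein-coding genes. In those windows 12 of the 25 occupied genes had ACAAT, 2 CTTTGA, 3 GAGAG, 5 CAGCTG, 8 TTTGAA and 1 CAGGTAG. The counts among all 37 genes follow, with the share of all protein-coding genes in brackets. They were 16 for ACAAT (45.1%), 3 for CTTTGA (11.4%) and 5 for GAGAG (22.5%). For CAGCTG the count was 7 (13.8%), for TTTGAA 12 (26.7%) and for CAGGTAG 1 (1.02%). None of these differences was tested.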
